A study of Mus musculus with 4 samples.

Results

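The platelet-derived growth factor (PDGF) and hepatocyte growth factor (HGF) systems were examined in undifferentiated mouse fibroblast lines with a mutant or a wild-type form of the corepressor SMRT. They comprised 8 genes: the receptor genes Pdgfra, Pdgfrb and Met and the ligand genes Pdgfa, Pdgfb, Pdgfc, Pdgfd and Hgf. Every probe set that the platform annotation gives to just 1 of these symbols was taken, which made 19 of 45037 probe sets and 8 of 18193 named genes. The probe set with the highest mean signal over the 4 arrays stood for its gene. The arrays were 2 of SMRTmRID 3T3-MEFs and 2 of wild-type 3T3-MEFs, single-colour Affymetrix arrays of total RNA. The cells of both genotypes are mouse embryonic fibroblasts kept in serial passage until immortal, and all were collected undifferentiated, once confluent. SMRTmRID cells come from mice with a mutated receptor interaction domain (RID) of SMRT, the part of this corepressor that nuclear receptors bind when they silence their target genes. The mutation alters the protein, and the transcript of SMRT itself was not analysed here. Each genotype's 2 arrays are labelled as technical replicates. All p-values, standard errors and intervals therefore measure the spread between technical replicates only, and the variation between independent lines or cultures was not analysed here. Strain, embryo age, passage number and the number of lines per genotype are not given in the sources used here.

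PDGFs are dimeric growth factors that drive division and migration of fibroblasts, pericytes and smooth muscle cells. They act through a pair of receptor tyrosine kinases that dimerise on binding: PDGFR-alpha binds the PDGF-A, -B and -C chains, and PDGFR-beta binds mainly the PDGF-B and -D chains. HGF, or scatter factor, is typically made by mesenchymal cells and acts on the receptor tyrosine kinase Met of neighbouring epithelial cells. In adipose tissue and skin, PDGF receptors mark the stromal cells from which fibroblasts and adipocyte precursors are drawn.

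Arrays of the same genotype differed little, with a median absolute difference of 0.10 on the log2(signal + 16) scale between the 2 SMRTmRID arrays and also between the 2 wild-type arrays. The signal is the MAS5 value per probe set, and 16 was added before taking log2, which understates changes from a low level. Fibroblast identity was checked with 10 markers, all of them tested. Their summed signal was 99073 and 93331 in SMRTmRID and 93835 and 95704 in wild-type. The collagen genes Col1a1, Col1a2 and Col3a1 lay between 12691 and 15718 in SMRTmRID and between 9014 and 13418 in wild-type. Of the 10 markers 3 were called higher: Col1a2, Col3a1 and Fap. The 5 called lower were Col5a1, Fn1, S100a4, Vim and P4hb, with log2 differences between -0.31 and -0.11. Of all tested genes 65.2% were called, 30.3% higher and 35.0% lower. The sum is made up mostly of bright genes such as the collagens, Vim and Sparc. The dimmer marker Fap differed, at 484 and 472 in SMRTmRID and 4.20 and 9.04 in wild-type. Fap passed the signal filter only through its SMRTmRID arrays and so had to differ. Of 6 endothelial markers none reached the signal filter described below, and of 8 epithelial markers 2 did. Epcam was called lower, with 137 and 132 in SMRTmRID and 187 and 171 in wild-type, and Krt5 was not called. Cdh1 was not tested and had 2.41 and 1.61 in SMRTmRID and 55.9 and 42.3 in wild-type. Of 6 blood cell markers 2 reached it and neither was called: Csf1r had 179.9 and 149 in SMRTmRID and 266 and 86.7 in wild-type, and Adgre1 had 32.6 and 48.0 in SMRTmRID and 26.3 and 50.3 in wild-type.

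Both PDGF receptor genes and the HGF gene were higher in SMRTmRID cells than in wild-type cells. Pdgfra was 19.5 times and Pdgfrb 3.45 times the wild-type mean signal, and Hgf averaged 582 ± 46.1 in SMRTmRID and 5.59 ± 4.01 in wild-type (SD, n = 2 arrays each). Pdgfc, which encodes a PDGFR-alpha ligand, was lower, at 0.753 times the wild-type mean. Pdgfa and Met did not pass the test, and the 4-array mean signals of Pdgfb and Pdgfd lay under the filter. A gene entered the test if its 4-array mean signal was above 35.1, the median of the whole table, and was called if its limma p, adjusted by Benjamini-Hochberg over all 11057 tested genes, was under 0.05. Of the 6 tested genes of the PDGF and HGF systems 4 were called, 3 higher and 1 lower. In the whole comparison 65.2% of the tested genes were called, 30.3% higher and 35.0% lower, so the number of calls among these genes is near the background and the sizes of their differences are what is described here. Signals of SMRTmRID and wild-type arrays were fully apart for 4 of the 6 genes, against 81.5% of all tested genes. Hgf passed the filter only through its SMRTmRID arrays, and a gene admitted in that way had to differ.

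**Figure D1:**
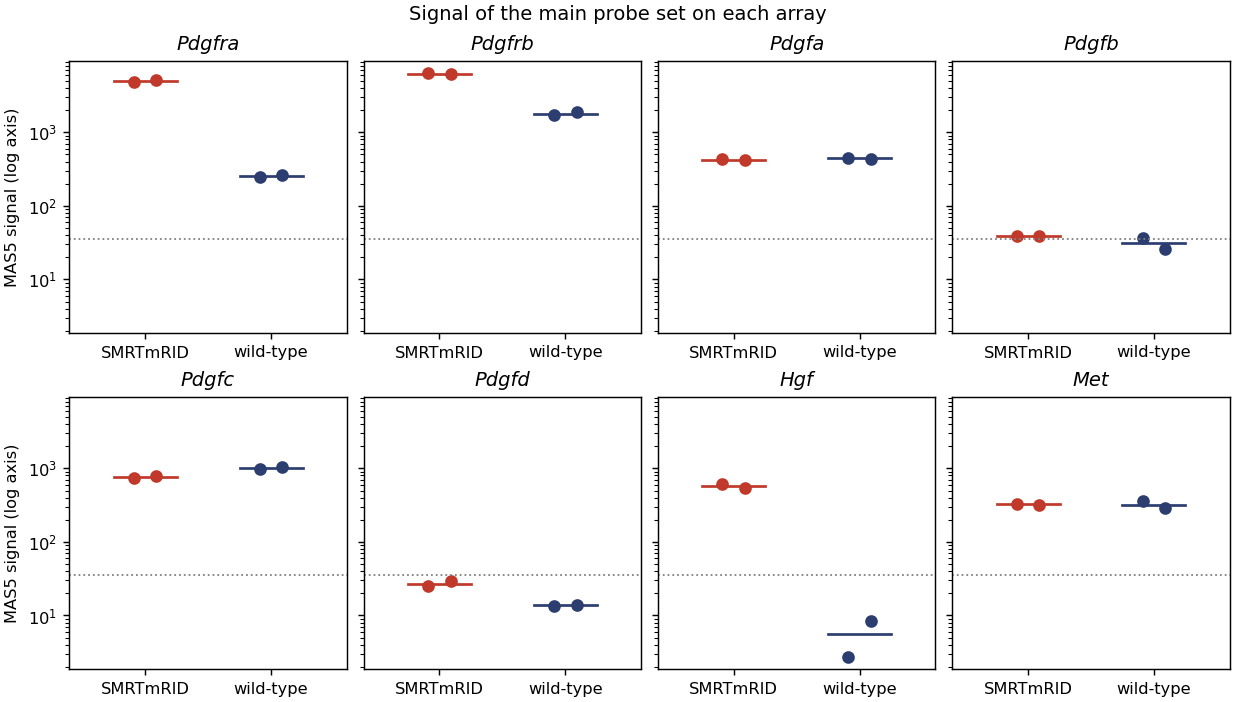
MAS5 signal (log axis) of the main probe set of each of the 8 genes on the 2 SMRTmRID (red, left) and 2 wild-type arrays (blue, right); horizontal bars are genotype means and the dotted line is the filter at 35.1. The arrays separate by genotype for Pdgfra, Pdgfrb, Hgf and Pdgfc, whereas those of Pdgfa and Met overlap. Those of Pdgfb and Pdgfd also separate but lie near or under the filter.

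RefSeq start regions on GRCm38.p6 were examined for 6 of the 8 genes: Pdgfra, Hgf, Pdgfc, Met, Pdgfa and Pdgfd. Start regions of Pdgfrb, which also rose, and of Pdgfb were not examined. Those of Pdgfra and Hgf, which rose, Pdgfc, which fell, and Met, which did not pass, are shown to let the start regions be compared. The lines below give the 250 bases before the annotated start of Pdgfra, of both annotated starts of Hgf, and of Pdgfc and Met, 5′ to 3′ on the strand of the gene. Capitals mark matches on either strand to the nuclear receptor half-site AGGTCA, the AP-1 site TGACTCA, the TATA box TATAAA, the CCAAT box CCAAT or the GC box GGGCGG.
Pdgfra promoter, chr5:75152001-75152250, plus strand: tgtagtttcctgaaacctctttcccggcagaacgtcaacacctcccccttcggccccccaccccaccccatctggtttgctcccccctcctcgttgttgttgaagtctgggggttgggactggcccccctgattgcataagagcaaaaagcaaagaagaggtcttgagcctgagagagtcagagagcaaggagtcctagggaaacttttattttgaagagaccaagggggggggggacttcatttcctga
Hgf promoter, first start, chr5:16553245-16553494, plus strand: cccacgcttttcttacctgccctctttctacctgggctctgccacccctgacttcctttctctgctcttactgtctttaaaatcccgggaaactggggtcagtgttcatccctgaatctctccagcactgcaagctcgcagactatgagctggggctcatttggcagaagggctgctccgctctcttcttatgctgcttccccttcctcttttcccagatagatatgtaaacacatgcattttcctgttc
Hgf promoter, second start, chr5:16553651-16553900, plus strand: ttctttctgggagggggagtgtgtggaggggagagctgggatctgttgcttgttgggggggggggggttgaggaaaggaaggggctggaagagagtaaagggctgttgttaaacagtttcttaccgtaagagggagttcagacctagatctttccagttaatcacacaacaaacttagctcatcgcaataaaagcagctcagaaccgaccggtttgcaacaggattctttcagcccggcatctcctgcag
Pdgfc promoter, chr3:81036166-81036415, plus strand: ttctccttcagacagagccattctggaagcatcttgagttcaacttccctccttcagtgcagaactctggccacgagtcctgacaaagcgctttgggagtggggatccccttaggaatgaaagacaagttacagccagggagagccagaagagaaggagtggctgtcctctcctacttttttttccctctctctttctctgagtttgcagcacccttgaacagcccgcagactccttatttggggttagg
Met promoter, chr6:17463707-17463956, plus strand: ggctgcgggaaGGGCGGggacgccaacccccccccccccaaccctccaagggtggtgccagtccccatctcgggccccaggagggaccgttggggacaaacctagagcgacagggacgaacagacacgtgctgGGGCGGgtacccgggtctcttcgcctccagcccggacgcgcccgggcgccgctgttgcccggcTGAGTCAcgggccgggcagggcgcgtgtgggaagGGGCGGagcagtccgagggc
None of these exact strings was present in the Pdgfra, Hgf or Pdgfc windows, and variants of them were not searched for. The Met window had 3 GC boxes and 1 AP-1 site, with the AP-1 site on the opposite strand and 54 bases before the start. Of 32851 RefSeq windows of the same length, 14.0% held AGGTCA, 4.46% TGACTCA, 12.4% TATAAA, 33.8% CCAAT and 32.7% GGGCGG, and none of these overlapped another in the 5 windows. The windows also differed in base composition. G and C made up 54.4% of the Pdgfra window, 50.8% and 51.2% of the Hgf windows, 50.8% of the Pdgfc window and 74.0% of the Met window, against a median of 52.4% over all windows. The Pdgfa windows, for 2 annotated starts and not printed, were 66.4% and 72.4% G and C and held 1 and 2 GC boxes, and the Pdgfd window was 53.6% and held 1 TATA box. Matches are descriptions of these letters, and binding was not measured.

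Pdgfra, the gene of the alpha receptor, whose start region held none of these motifs, had signals of 4828 and 5090.5 in SMRTmRID, against 247 and 262 in wild-type. The SMRTmRID arrays were far above the wild-type arrays, and within each genotype the arrays were nearly equal. Its log2 difference was 4.20 ± 0.06 (SE, n = 2 arrays each, limma adjusted p = 6.40e-11), rank 31 among the rises of all tested genes. Pdgfrb, the gene of the beta receptor, had signals of 6309.5 and 6115 in SMRTmRID and 1719 and 1879 in wild-type. Again the genotypes did not overlap, and the log2 difference was 1.78 ± 0.05 (SE, limma adjusted p = 8.09e-09), rank 347 among the rises. Over all tested genes the median log2 difference was -0.05. In RNA from whole cultures, a lower number of cells with a transcript and less of it per cell cannot be told apart.

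The probe sets of each receptor gene had the same direction but, for Pdgfra, not the same size. The second Pdgfra probe set, designed from the same sequence record as the first, had signals of 1354 and 1247 in SMRTmRID and 80.3 and 106 in wild-type. The third, from another record, had 321 and 311 in SMRTmRID and 68.9 and 52.8 in wild-type. When every probe set was tested as its own row, where 59.5% of 22481 probe sets were called, 31.2% higher and 28.2% lower, the 3 Pdgfra probe sets rose by 4.20 ± 0.06, 3.60 ± 0.12 and 2.12 ± 0.14 (SE). The ratio of mean signals was thus 19.5, 14.0 and 5.19, so that the size of the Pdgfra difference depends on the probe set while its direction does not. The 2 Pdgfrb probe sets were alike, with log2 differences of 1.78 ± 0.06 and 1.82 ± 0.07 (SE). The less bright one had signals of 1489 and 1455 in SMRTmRID and 380 and 430 in wild-type.

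Met, the gene of the HGF receptor, whose start region is rich in G and C and held 3 GC boxes, had signals of 330 and 318 in SMRTmRID and 357 and 285 in wild-type. Both SMRTmRID arrays lay between the wild-type arrays. The log2 difference was 0.02 ± 0.11 (SE, limma adjusted p = 0.868), with a 95% interval of -0.22 to 0.27. Differences of that size could not be resolved, but one as large as that of Pdgfrb lies outside this interval. The interval covers only the spread between technical replicates. A second Met probe set had 135 and 141 in SMRTmRID and 141 and 158 in wild-type, a log2 difference of -0.10 ± 0.13 (SE) that did not pass either.

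Of the ligand genes, Hgf differed most. Its main probe set had signals of 614 and 549 in SMRTmRID, against 2.76 and 8.43 in wild-type. Wild-type signals were thus near the bottom of the scale, where MAS5 values are imprecise, while both SMRTmRID arrays were well above the filter. The log2 difference was 4.80 ± 0.18 (SE, limma adjusted p = 3.41e-08), with a wild-type mean under the filter. It was 6.61 with a pseudocount of 1 and 3.21 with a pseudocount of 64, so its size depends on the pseudocount. The other Hgf probe sets had the same direction. One had 452 and 380 in SMRTmRID and 20.2 and 4.66 in wild-type, a log2 difference of 3.98 ± 0.26 (SE), and one had 226 and 282 in SMRTmRID and 14.7 and 4.95 in wild-type, a log2 difference of 3.41 ± 0.24 (SE). All 3 probe sets come from different sequence records. Their wild-type means, 5.59, 12.4 and 9.81, lay under the filter. Each thus entered the test over probe sets only through its SMRTmRID arrays and had to differ. That all 3 passed that test therefore adds no support.

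Pdgfc was the only tested gene of the 6 that fell. This ligand carries a CUB domain that proteases remove before it can bind PDGFR-alpha. Its signals were 734 and 778.5 in SMRTmRID and 971 and 1037 in wild-type. Both SMRTmRID arrays were below both wild-type arrays, and the log2 difference was -0.40 ± 0.06 (SE, limma adjusted p = 3.22e-04), close to the middle of all absolute differences (percentile 46.9). A second Pdgfc probe set had 541 and 486 in SMRTmRID and 783 and 809 in wild-type, a log2 difference of -0.62 ± 0.07 (SE) in the test over probe sets. Its name ends in _s_at, which Affymetrix uses where probes can match transcripts of more than 1 gene.

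Pdgfa, which encodes the PDGF-A chain, had signals of 432 and 417 in SMRTmRID and 453 and 429 in wild-type. The arrays of the genotypes overlapped, and the log2 difference was -0.05 ± 0.07 (SE, limma adjusted p = 0.552), with a 95% interval of -0.22 to 0.11. Its second probe set, from the same record, had 350 and 378 in SMRTmRID and 339 and 333 in wild-type, with a log2 difference of 0.11 ± 0.08 (SE) that did not pass. The signs of the 2 probe sets thus differed, neither past the threshold. A difference as large as that of Pdgfc lies outside the interval of the main Pdgfa probe set. This interval covers only the spread between technical replicates and holds for the main scaling. With median centring the log2 difference was -0.22 ± 0.12 (SE) for Pdgfa and -0.56 ± 0.11 (SE) for Pdgfc.

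Pdgfb and Pdgfd, the genes of the chains that bind PDGFR-beta, were not tested. Pdgfb, the B chain, had signals of 38.7 and 38.5 in SMRTmRID and 37.1 and 26.2 in wild-type, without overlap. Its mean of 35.12 lay just under the filter at 35.14, and without a filter the log2 difference of 0.21 ± 0.27 (SE) did not pass (adjusted p = 0.634 by limma). The second Pdgfb probe set had 37.5 and 19.2 in SMRTmRID and 34.1 and 31.2 in wild-type, with overlapping arrays. Pdgfd, the D chain, had signals of 24.9 and 29.2 in SMRTmRID and 13.6 and 14.0 in wild-type. These arrays did not overlap, but without a filter the log2 difference of 0.53 ± 0.26 (SE) did not pass (adjusted p = 0.168 by limma), and its other 2 probe sets lay between 2.33 and 29.1 on all arrays with overlapping genotypes. No detection calls were used, so low signals are given as signals and not as absence.

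**Figure D2:**
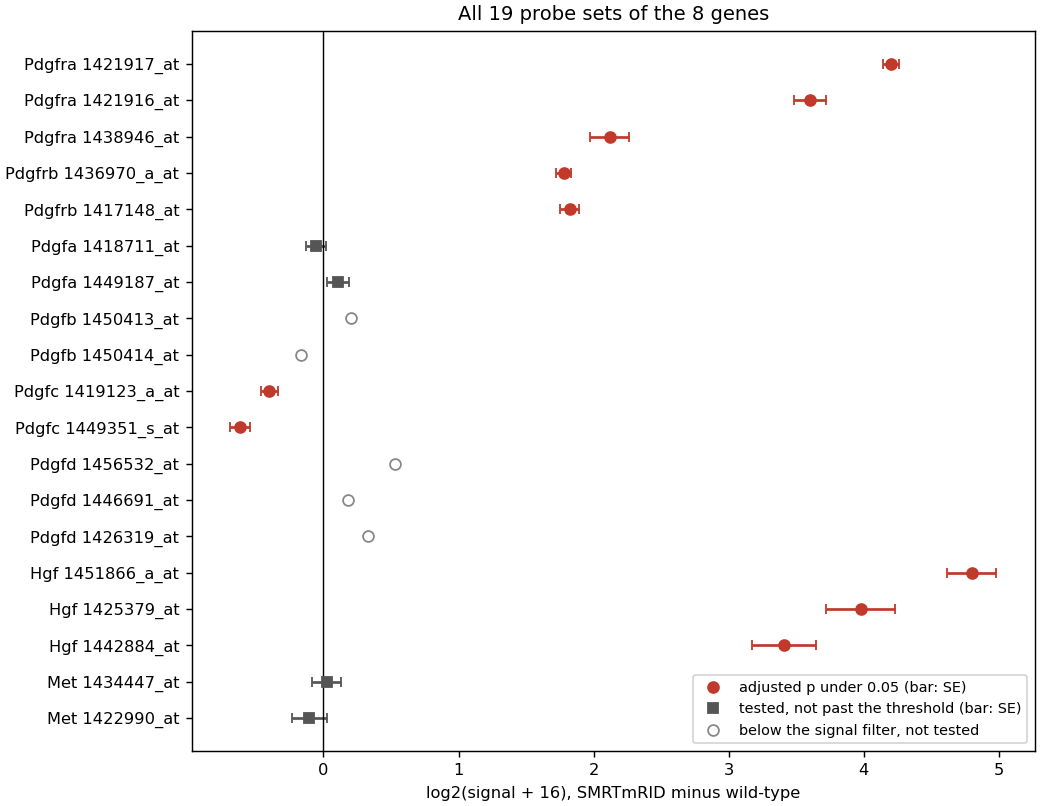
Log2(signal + 16) difference, SMRTmRID minus wild-type, of all 19 probe sets, with the standard error from the fit over probe sets; red circles passed the test, grey squares were tested and did not pass, and open circles lay below the signal filter. All 3 Pdgfra, both Pdgfrb and all 3 Hgf probe sets lie right of 0, between 1.78 and 4.80, and both Pdgfc probe sets lie left of it, at -0.40 and -0.62.

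Set among all tested genes, Pdgfra had an absolute difference at percentile 99.6 and Pdgfrb at percentile 95.01. No percentile is given for Hgf, whose wild-type arrays lay far under the filter. Pdgfa and Met lay near the centre, at percentiles 6.89 and 2.83.

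**Figure D3:**
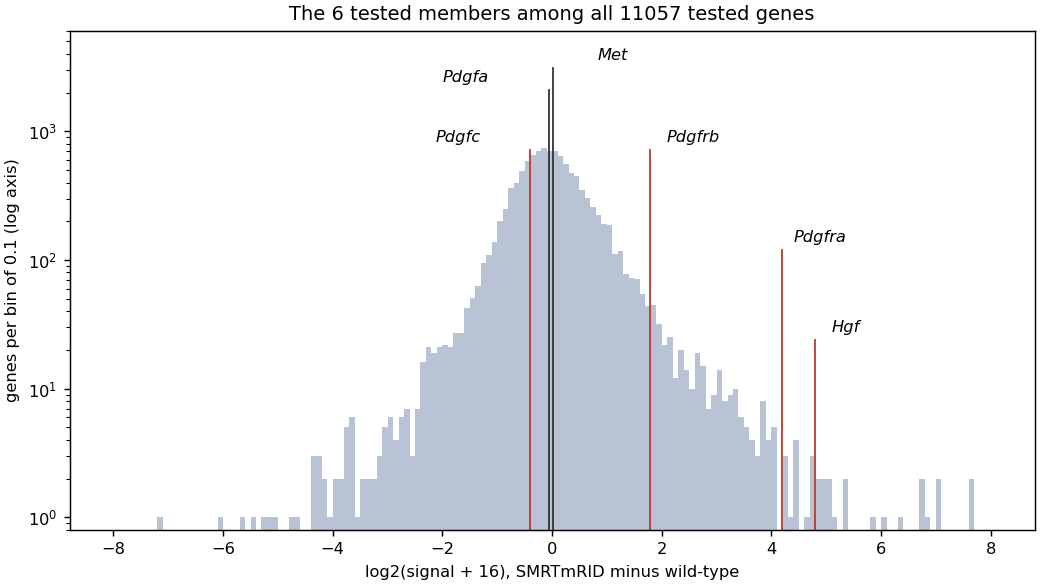
Histogram of the log2(signal + 16) differences, SMRTmRID minus wild-type, of all 11057 tested genes in bins of 0.1 (log count axis), with vertical lines at the 6 tested genes; red lines mark genes past the threshold. Pdgfra at 4.20 stands in the upper tail, and Pdgfc at -0.40 stands within the bulk of genes. Hgf is drawn at 4.80, a place that depends on the pseudocount, since its wild-type arrays lay under the filter.

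Genes that act with these ligands and receptors were described from 7 lists. In the lists together 109 genes were tested, of which 49 were higher and 38 lower, 79.8% against the background of 65.2%, with a median log2 difference of 0.14 against -0.05 for all tested genes. With each array centred on its median the same genes gave 36 higher and 42 lower. Of the 109 genes, Vegfc, Mmp3 and Spry4 passed the filter only through their SMRTmRID arrays, and Pcsk6, Spint2 and Pik3cb only through their wild-type arrays. These 6 had to differ, their means in the other genotype lie under the filter where MAS5 values are imprecise, and the size of a difference from such a level depends on the pseudocount, so only their signals are given below. Lists are described by counts and medians, without a test of the list. Their named genes are the called ones with the greatest differences, and others named were chosen after their values were seen.

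Ligands of the wider PDGF and VEGF superfamily were higher in 3 of 4 tested cases, none was lower, and the list median was 0.98. Over all tested genes 30.3% were higher and 35.0% lower. Vegfc, a lymphatic growth factor gene, had signals of 243 and 239 in SMRTmRID and 24.0 and 27.0 in wild-type, the wild-type arrays being under the filter. Vegfc thus had to differ, and the count and median of the superfamily ligands are partly set by the filter. Vegfa, the main angiogenic factor gene, rose by 1.36 and had 741 and 855 in SMRTmRID against 286 and 316 in wild-type. Among receptors related to the PDGF receptors and Met, and their ligands, 3 of 4 tested genes were higher and none lower, and with median centring 1 was higher and none lower. Kitl, which encodes the ligand of Kit, rose by 2.40 to 489 and 483 in SMRTmRID, against 90.8 and 68.4 in wild-type, and Csf1, a macrophage growth factor gene, rose by 0.38. Kit itself lay under the filter, with 4.24 and 19.6 in SMRTmRID and 1.96 and 2.79 in wild-type.

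Proteases that process the ligands, and their inhibitors, were mostly under the filter. Of 15 with a probe set 5 were tested, 3 of them lower and none higher, with a median of -0.24. Over all tested genes 30.3% were higher and 35.0% lower. Of the 3 lower, Pcsk6 and Spint2 passed the filter only through their wild-type arrays and had to differ. The other, Furin, fell by 0.24 on the log2 scale. The count is thus partly set by the filter. Pcsk6, a proprotein convertase gene, had 32.4 and 17.1 in SMRTmRID, under the filter, and 172 and 179 in wild-type. Pcsk5, a convertase gene of the same family, went the other way, with 63.2 and 60.7 in SMRTmRID and 4.05 and 1.20 in wild-type, and was not tested because its 4-array mean lay under the filter. Spint2, which encodes an inhibitor of HGF-activating proteases, had 21.6 and 19.1 in SMRTmRID, also under the filter, and 62.3 and 55.5 in wild-type. Plat, which encodes the tissue plasminogen activator that cleaves PDGF-C, had 1769 and 1659 in SMRTmRID and 1738 and 1706 in wild-type, with overlapping arrays. Hgfac, the HGF activator gene, and Plau, whose urokinase product can also cleave HGF, had signals of at most 24.9 on every array and were not tested.

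Co-receptors and membrane partners changed in both directions. Of 15 tested 6 were higher and 8 lower, 93.3% called, with a median of -0.36. The share called over all tested genes was 65.2%, with 30.3% higher and 35.0% lower. S1pr1, a sphingosine-1-phosphate receptor gene, rose by 1.52, and Slc9a3r1, whose scaffold protein NHERF1 binds PDGF receptors, rose by 1.32. Cspg4, which encodes the proteoglycan NG2 that binds PDGF-AA, had 46.9 and 41.1 in SMRTmRID and 774 and 808.5 in wild-type, a difference of -3.75 ± 0.11 in log2 units (SE, limma adjusted p = 6.71e-09). The tetraspanin gene Cd151 fell by 1.45 on the log2 scale. Cd44, whose product can act as a Met co-receptor, had 1801 and 1862 in SMRTmRID and 2869 and 2953 in wild-type, and Nrp1, a neuropilin gene, had 905.5 and 871 in SMRTmRID and 583 and 576 in wild-type.

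Cspg4 and Pdgfrb are both used as pericyte markers, and they moved in opposite directions. Of the 8 pericyte and smooth muscle markers 3 were tested. Besides Cspg4, Mcam fell by 0.68 on the log2 scale, and Cnn1, a contractile gene, rose by 1.45. The summed signal of the list was 926 and 954 in SMRTmRID and 1345 and 1341 in wild-type, and Rgs5, Des, Abcc9, Kcnj8 and Myh11 lay at or under 39.6 on every array. Their part in the Pdgfrb difference was not tested. Of 10 fibroblast markers 3 were higher and 5 lower, beside 30.3% higher and 35.0% lower over all tested genes. Fap aside, their log2 differences lay between -0.31 and 0.62. Fap, a surface protease gene of activated fibroblasts, had 484 and 472 in SMRTmRID and 4.20 and 9.04 in wild-type, and passed the filter only through its SMRTmRID arrays.

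Adaptors and signalling enzymes downstream of the receptors were called in 27 of 33 cases, 15 higher and 12 lower, with a median of 0.14. Among all tested genes 65.2% were called, 30.3% higher and 35.0% lower. With median centring 8 of the adaptors and enzymes were higher and 14 lower, with a median of -0.02. Sos1, which encodes an exchange factor that activates Ras, had 686 and 691 in SMRTmRID and 173.5 and 175 in wild-type, a difference of 1.89 ± 0.08 in log2 units (SE, limma adjusted p = 5.68e-08). The Src family kinase gene Yes1 rose by 1.57. The kinase gene Akt2 fell by 0.77 on the log2 scale. Pik3cb, a catalytic subunit gene of phosphoinositide 3-kinase, had 30.3 and 31.9 in SMRTmRID, under the filter, and 67.8 and 93.9 in wild-type. The related subunit genes Pik3r1 and Pik3ca had log2 differences of 1.05 and 1.43.

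Of 26 tested negative regulators of receptor tyrosine kinases, 16 were called higher and 4 lower, and the list median was 0.44. With median centring 12 were higher and 5 lower, with a median of 0.28. Over all tested genes 30.3% were higher and 35.0% lower, and the list's direction was not tested. Lrig1, whose membrane protein promotes turnover of growth factor receptors including Met, had 1159.9 and 1239 in SMRTmRID and 116.5 and 155 in wild-type, a difference of 3.01 ± 0.11 in log2 units (SE, limma adjusted p = 3.21e-08). Cd2ap, an adaptor gene of receptor endocytosis, rose by 1.77. In the other direction, Ezr, which links membrane proteins to actin, fell by 1.25 on the log2 scale and the receptor phosphatase gene Ptprk by 0.98. The Sprouty genes Spry1 and Spry2, feedback inhibitors of the Ras and ERK pathway, had log2 differences of 1.21 and 1.56, and Spry4 had signals of 71.7 and 87.8 in SMRTmRID and 30.2 and 17.2 in wild-type.

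Transcripts known to be induced by PDGF or HGF in cultured cells went in both directions, with 6 of 22 tested genes higher and 11 lower and a median of -0.28. Among all tested genes 30.3% were higher and 35.0% lower. Mmp3, the stromelysin gene, had 1242 and 1288 in SMRTmRID and 41.1 and 22.3 in wild-type, around the filter. Has2, a hyaluronan synthase gene, had 1674 and 1638 in SMRTmRID and 153.5 and 135 in wild-type and rose by 3.38. Plaur, the urokinase receptor gene, fell by 1.85 on the log2 scale and Hbegf, an EGF receptor ligand gene, by 1.77. The immediate early genes did not move together: Fos had 272 and 265 in SMRTmRID and 141 and 120 in wild-type, Egr1 had 2570 and 2729 in SMRTmRID and 2631 and 2477 in wild-type, and Myc had 743 and 758 in SMRTmRID and 884 and 986 in wild-type.

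**Figure D4:**
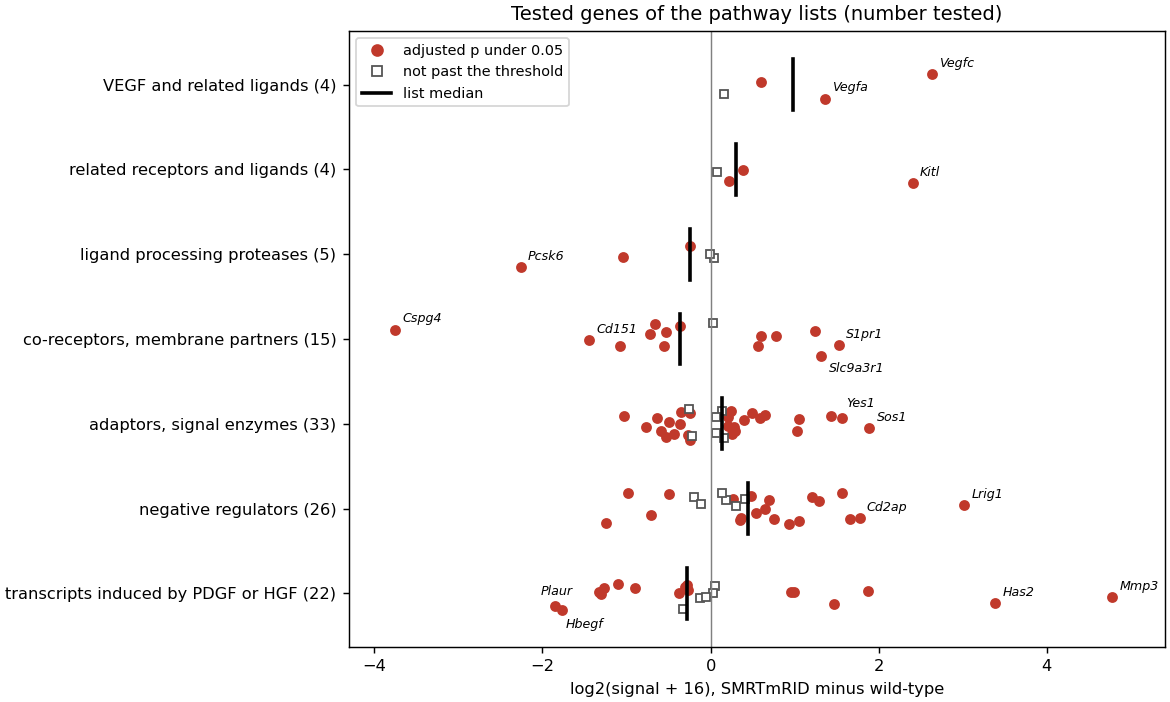
Log2(signal + 16) differences, SMRTmRID minus wild-type, of the tested genes of each of the 7 pathway lists, 1 point a gene, with the number tested in brackets and the list median as a black bar; filled red points passed the test and open squares did not. Medians range from -0.36 for co-receptors and membrane partners to 0.98 for VEGF and related ligands, and every list with over 10 genes holds points on both sides of 0.

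Genes with the most similar pattern over the 4 arrays were listed for Hgf and for the only fall. Hgf had the greatest rise of the 6 genes with a pseudocount of 16 or 1, whereas with 64 Pdgfra, at 3.98, was above Hgf, at 3.21. After each gene's own mean was subtracted, the nearest tested genes to Hgf on the log2(signal + 16) scale were Zic1, Tfpi and Mgst1, at Euclidean distances of 0.212, 0.236 and 0.254. Zic1 had signals of 648 and 629 in SMRTmRID and 1.47 and 10.1 in wild-type. The wild-type arrays of Hgf and Zic1 thus lay under the filter, and those of Tfpi, at 32.2 and 36.5, lay around it. The size of a difference from such a level depends on the pseudocount, and so does the likeness of these genes. Those nearest to Pdgfc were Krtcap2, Evc2 and Sugp1, at distances of 0.00742, 0.0125 and 0.0169. With 4 arrays in a pair of groups, such likeness reflects little beyond the genotype difference and the order of the arrays within a genotype.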

How the data were processed

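The authors deposited linear intensity values, 1 for each probe set on each array, which the submitters' processing notes name as MAS5 signals. The arrays had been scaled already: trimmed of 2% of probe sets at either end, each had a mean of 200.001. After 64 control probe sets were left out, 34945 probe sets had 1 gene symbol in the platform annotation and 932 had several and were not named. Symbols were updated through gene IDs found in a GRCm38.p6 table for 34741 of them. Genotypes were compared on log2(signal + 16) with limma 3.58.1 (R 4.3.3), using eBayes with a trend of variance on mean signal, all 4 arrays and no covariates, and p-values, all two-sided, were adjusted over all genes tested. A second fit held every probe set as its own row. The number of arrays limits the precision. Members, lists and tests were chosen with earlier results of these data known. The rule for names took all 8 genes, then up to 4 called genes per list, at most 2 in each direction, and the 3 nearest genes to the greatest rise and to the greatest fall. Alternatives were other pseudocounts (1 and 64), no filter and a filter at the 75th percentile, quantile normalization, median centring, no variance trend, averaging a gene's probe sets, a block for the replicate number and leaving out 1 array at a time. Figures were drawn with matplotlib 3.10.9.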

Additional observations from a re-analysis of the deposited data

How the results depend on the processing

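The calls for Pdgfra, Pdgfrb, Hgf and Pdgfc kept their direction and stayed past the threshold in all 13 alternatives, with log2 differences of 3.31 to 4.28, 1.62 to 1.87, 3.21 to 6.61 and -0.56 to -0.35. The Hgf calls add no support, since Hgf passed the filter only through its SMRTmRID arrays and had to differ. The lowest Pdgfra value came when a gene's probe sets were averaged. Met and Pdgfa passed in none of the 13 alternatives and changed sign in some. Met had a log2 difference of -0.042 with quantile normalization, -0.14 with median centring and -0.0402 with the mean of its probe sets, and between -0.13 (without wild-type replicate 2) and 0.18 (without wild-type replicate 1) with 1 array left out, including -0.0032 without SMRTmRID replicate 1. Pdgfa had 0.0279 with the mean of its probe sets, and between -0.09 and -0.02 with 1 array left out. The causes were not tested. Median centring shifted the median of all tested genes by -0.16, and the differences of Met and Pdgfa (-0.22) moved with it. It left 2472 genes higher and 4733 lower, 34.3% of the calls higher, against 3346 and 3867, or 46.4%, without centring. Over all 13 alternatives the genes called higher numbered between 2261 and 3433 and those called lower between 2930 and 4733. With the replicate number as a block, 3433 genes were higher and 3987 lower and no call of these 6 genes changed. The labels do not say that a number pairs arrays across genotypes, and the deviations of same-numbered arrays correlated at 0.012 across genes. With 1 array left out, the lone array is assumed to vary like the other genotype. MAS5 signals near the bottom of the scale limit the sizes given for Hgf, Pdgfb and Pdgfd.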

Other observations

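Neighbouring genes were set beside the PDGF and HGF genes after the values had been seen, taking the 2 nearest protein-coding genes with a named probe set on each side in the order of GRCm38.p6. Of these 32 neighbours 22 were tested, 11 of them higher and 4 lower, beside 30.3% higher and 35.0% lower over all tested genes. Pdgfra lies in a row of receptor tyrosine kinase genes on chromosome 5. Its neighbours Kit and Kdr had mean signals of 11.9 and 39.95 in SMRTmRID and 2.37 and 27.1 in wild-type and were not tested. Gsx2 had 3.20 in SMRTmRID and 1.53 in wild-type, and Chic2 rose by 0.16 (adjusted p = 0.0341 by limma). Next to Hgf on the same chromosome, Cacna2d1, a calcium channel subunit gene, had 352 in SMRTmRID and 77.2 in wild-type, a log2 difference of 1.98, and Sema3c rose by 0.17. Beside Pdgfrb, Csf1r and Hmgxb3 were tested and did not pass, with log2 differences of 0.08 and 0.12. Around Met, whose own difference did not pass, Cav2, Capza2 and St7 rose by 1.12, 0.93 and 0.89, while Cav1 fell by 0.55 on the log2 scale. The other 3 falls were those of Fam20c (0.84) and Dnaaf5 (0.72) beside Pdgfa and Apobec3 (1.06) beside Pdgfb. Beside Pdgfd, whose signals lay under the filter, the inflammatory caspase genes Casp4 and Casp12 rose by 1.99 and 1.92, with mean signals of 378 and 834 in SMRTmRID and 83.4 and 209 in wild-type.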
